A study of Mus musculus with 16 samples.

Results

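The microRNAs (miRNAs) described here are best known from brain, namely mmu-miR-129-5p, mmu-miR-129-3p, mmu-miR-124, mmu-miR-9, mmu-miR-128, mmu-miR-138, mmu-miR-132 and mmu-miR-212, written below without the prefix for mouse. They were found by their names in the array design, and all 8 of them are among the 611 mouse miRNAs on the array. The list was built around miR-129-5p, which was chosen by its signal in late-passage Ercc1-/- cells on these same arrays, and the other members were added because they are known brain miRNAs. The level of miR-129-5p in those cells against the other groups is therefore a description, and no test of it is given.

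The cells were primary mouse embryonic fibroblasts (MEFs) of a mixed FVB/n and C57Bl/6 background, either Ercc1-/- or wild type (WT). Ercc1-/- cells lack a subunit of the XPF-ERCC1 nuclease, which cuts DNA during nucleotide excision repair and crosslink repair, in every cell and from conception, and WT cells carry no altered allele. Cells of each genotype were passaged in 20% O2 or in 3% O2 and harvested at passage 7 (P7) or passage 3 (P3). This gives 8 groups, Ercc1-/- P7, WT P7, Ercc1-/- P3 and WT P3 in each oxygen level, and every group has 2 arrays, from 2 independent cell lines per the methods. Senescence, a lasting arrest of the cell cycle, is the setting in which the study compared these groups. Replicate 1 of every group was hybridized on 1 slide (slide 1) and replicate 2 on the other (slide 2). Ercc1 mRNA is not measured by a miRNA array, so the genotype labels were not checked against it.

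A miRNA is cut from one arm of a hairpin precursor, loaded into an Argonaute protein, and then lowers the output of mRNAs that pair with its seed, bases 2 to 8 from its 5′ end. Both arms of the miR-129 hairpin can be loaded, which gives miR-129-5p and miR-129-3p. In brain, miR-124 is the dominant miRNA of neurons, miR-9 acts in neural progenitors, miR-128 and miR-138 act in neurons and at synapses, and miR-132 and miR-212 are made from 1 transcript that is induced by neuronal activity through CREB. Mouse RefSeq (GRCm38.p6) holds mature sequences for 7 of the 8 members under their present names. The 5 sequences below belong to the members that were above background on at least 1 array, since these carry the results. They are written 5′ to 3′ with the seed in capitals.
miR-129-5p: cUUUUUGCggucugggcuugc
miR-129-3p: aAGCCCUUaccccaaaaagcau
miR-132: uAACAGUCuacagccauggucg
miR-212: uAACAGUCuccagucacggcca
miR-128: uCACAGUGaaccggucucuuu

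The same miR-129-5p is encoded by Mir129-2 (chr2:94241419-94241439, minus strand) and by Mir129-1 (chr6:29022624-29022644, plus strand), so its signal cannot be assigned to either gene. The name miR-129-3p on the array was taken as miR-129-2-3p of RefSeq, from Mir129-2 (chr2:94241376-94241397, minus strand), a match by name that the files do not check. The first 19 of its 22 bases are also found in the Mir129-1 hairpin, so this signal may come from both genes too. No other mature mouse miRNA in the table has the seed of miR-129-5p or that of miR-129-3p. The seed of miR-132 and miR-212 is identical, and their sequences match at 17 of 22 positions. Mir212 (chr11:75173443-75173464, plus strand) and Mir132 (chr11:75173723-75173744, plus strand) lie 258 bases apart, counted between the mature sequences.

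Each member has 2 probes, with 10 spots each. The level used here is the mean background-subtracted signal over a miRNA's spots and probes, scaled so that the 57 miRNAs above background on every array have the same mean, and given as log2. A scaled signal of 2.82, which is 1.50 on the log2 scale, served as the floor for lower ones. A miRNA was above background on an array when at least a share of 0.5 of a probe's spots was well above background. The arrays differed in brightness, the mean unscaled log2 signal of the 57 miRNAs, which ran from 5.80 to 9.77. It was lowest in replicate 2 of Ercc1-/- P7 MEFs in 20% O2, an array with 117 miRNAs above background. The replicates of that group correlated at r = 0.49, and those of the other groups at 0.74 to 0.98. In MEFs, 8 of 8 miRNAs abundant in mesenchymal cells were above background, 6 of them on every array, and their summed level was 13.6 to 14.3 in Ercc1-/- P7, 13.4 to 14.5 in WT P7, 14.0 to 14.2 in Ercc1-/- P3 and 13.8 to 14.4 in WT P3 MEFs (log2). Of the marker miRNAs of other cells, 0 of 7 epithelial, 0 of 3 liver and endothelial, 1 of 4 muscle and 3 of 6 blood miRNAs were above background on any array. RNA was taken from whole cultures, so fewer cells that make a miRNA and less of it per cell cannot be told apart.

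The member at the centre of the list, miR-129-5p, was seen almost only in Ercc1-/- MEFs. It was above background on 4 of 4 Ercc1-/- P7 arrays and 0 of 4 WT P7 arrays, and on 1 of 4 Ercc1-/- P3 arrays and 0 of 4 WT P3 arrays. The software's own call detected it on 4 of 4 Ercc1-/- P7 arrays, on 3 of 4 Ercc1-/- P3 arrays and on no WT array. In human tumour cells miR-129-5p is known to repress SOX4 and CDK6. In P7 Ercc1-/- MEFs, slide 1 and slide 2 gave scaled log2 levels of 4.17 and 6.45 in 20% O2, and of 4.38 and 5.57 in 3% O2. In P3 Ercc1-/- MEFs they gave 1.50 and 1.92 in 20% O2 and 2.34 and 2.39 in 3% O2. All 8 WT arrays were at the floor of 1.50. The 4 Ercc1-/- P7 arrays thus lay above all 12 others, and 7 of the 8 Ercc1-/- arrays lay above the WT level. Of the 235 tested miRNAs, 3 (1.28%) had scaled Ercc1-/- P7 arrays all above the WT P7 arrays, and 53 (22.6%) had them all above the Ercc1-/- P3 arrays, from which nothing is read for miR-129-5p, as it was chosen on these arrays.

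**Figure D1:**
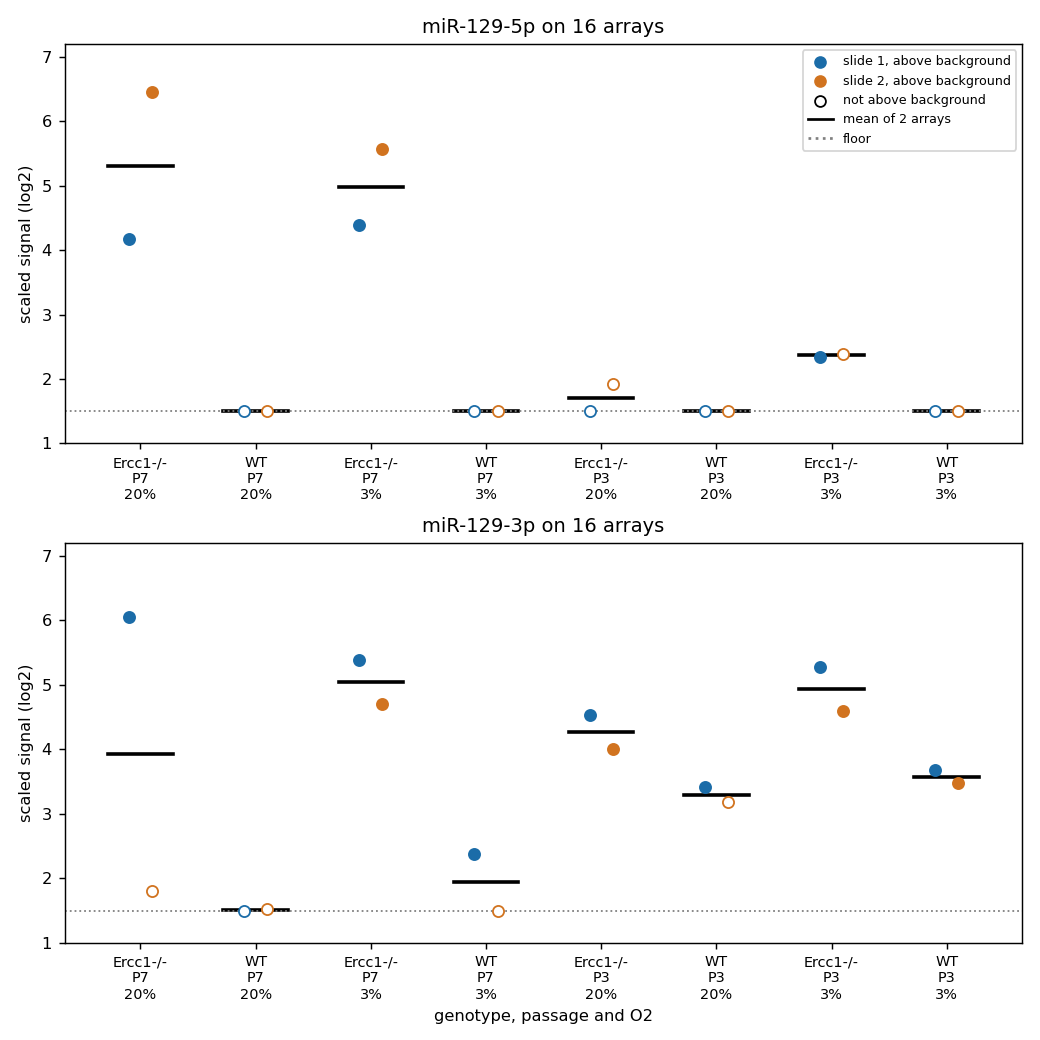
Scaled log2 signal of miR-129-5p (top) and miR-129-3p (bottom) on each of 16 arrays, by genotype, passage and O2, with bars at the mean of 2 arrays, open points for arrays not above background and a dotted line at the floor of 1.50. MiR-129-5p is above background on all 4 Ercc1-/- P7 arrays and on 1 Ercc1-/- P3 array, and miR-129-3p is spread over both passages with a single low Ercc1-/- point at 1.80.

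In order of level, miR-129-5p was at 5.31 ± 1.62 in Ercc1-/- P7 MEFs in 20% O2, 4.98 ± 0.84 in Ercc1-/- P7 MEFs in 3% O2, 2.36 ± 0.03 in Ercc1-/- P3 MEFs in 3% O2, and 1.71 ± 0.30 in Ercc1-/- P3 MEFs in 20% O2 (mean log2 ± SD, n = 2 each), with the 4 WT groups at the floor. The first pair in this order differed by less than their spread. The change between 20% and 3% O2 in P7 Ercc1-/- MEFs was 0.33, with -0.22 on slide 1 and 0.88 on slide 2, and was not tested. The difference of Ercc1-/- P7 from WT P7 MEFs over both oxygen levels was 3.65 on the log2 scale, beside a pooled SD within groups of 0.91. This SD is lowered by the WT P7 groups, whose SD is 0 because their arrays were at the floor. The Ercc1-/- P7 groups alone had SDs of 1.62 and 0.84. The size of the difference depends on how low signals are treated. It was 0.68 under normexp background correction, 2.51 without scaling, and 6.37 and 1.65 with the floor multiplied by 0.1 and 4. Since WT is below background, the fold is approximate. Each WT array was set at the lowest signal of any miRNA above background on it, or at its own level where that was higher. Some miRNAs over that signal were not above background, so the fold is not a strict lower limit. On replicate 1 of WT P7 MEFs in 3% O2 that signal was 1.16 (log2), and miR-132 at 2.48 was not above background. By this measure miR-129-5p was 8.01-fold higher in Ercc1-/- P7 than in WT P7 MEFs. It was 7.84-fold higher in 20% O2 and 8.19-fold higher in 3% O2. With the P3 arrays set in the same way, it was 10.6-fold higher in P7 than in P3 Ercc1-/- MEFs in 20% O2. In 3% O2, where 1 P3 array was above background, the difference of P7 from P3 was 2.61 (log2), a value that depends on the floor.

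The brightness of the arrays was 5.80 to 9.16 for Ercc1-/- P7 and 7.08 to 9.29 for WT P7 MEFs, and scaling raises the dimmer arrays more, so the unscaled signal is given too. On slide 1 and slide 2 the unscaled processed signal of miR-129-5p was 31.2 and 14.9 in Ercc1-/- P7 MEFs in 20% O2 and 15.2 and 19.3 in 3% O2. In WT P7 MEFs it was -0.1 and -1.5 in 20% O2 and 0.8 and 0.6 in 3% O2. It was 4.2 to 12.6 over the 4 Ercc1-/- P3 arrays and -0.6 to 2.9 over the 4 WT P3 arrays. Without scaling the Ercc1-/- arrays of either passage therefore did not overlap the WT arrays of the same passage. After scaling, 1 Ercc1-/- P3 array was at the floor, as were the WT P3 arrays. Brightness at P3 was 8.35 to 9.77 for Ercc1-/- and 6.98 to 9.34 for WT MEFs. Of all 235 tested miRNAs, 4 (1.7%) had unscaled Ercc1-/- P7 arrays all above the WT P7 arrays, miR-129-5p among them. The same held at P3 for 6 (2.55%), again with miR-129-5p. Nothing is read from these shares for it, as it was chosen on these arrays and entered the fit through the Ercc1-/- P7 groups alone. At P3 it was above background on only 1 of 4 Ercc1-/- arrays and 0 of 4 WT arrays. Across the 16 arrays, Pearson r between array brightness and the level was -0.57 after scaling and -0.06 before it, as a description over arrays that share 2 slides. The dimmest Ercc1-/- P7 arrays carry the highest scaled values, 6.45 at a brightness of 5.80 and 5.57 at 7.06. WT arrays of like brightness, 7.08 at P7 and 6.98 at P3, both in 20% O2 on slide 2, had miR-129-5p at the floor. No WT array was as dim as 5.80, and the part of brightness in the scaled levels was not tested.

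**Figure D2:**
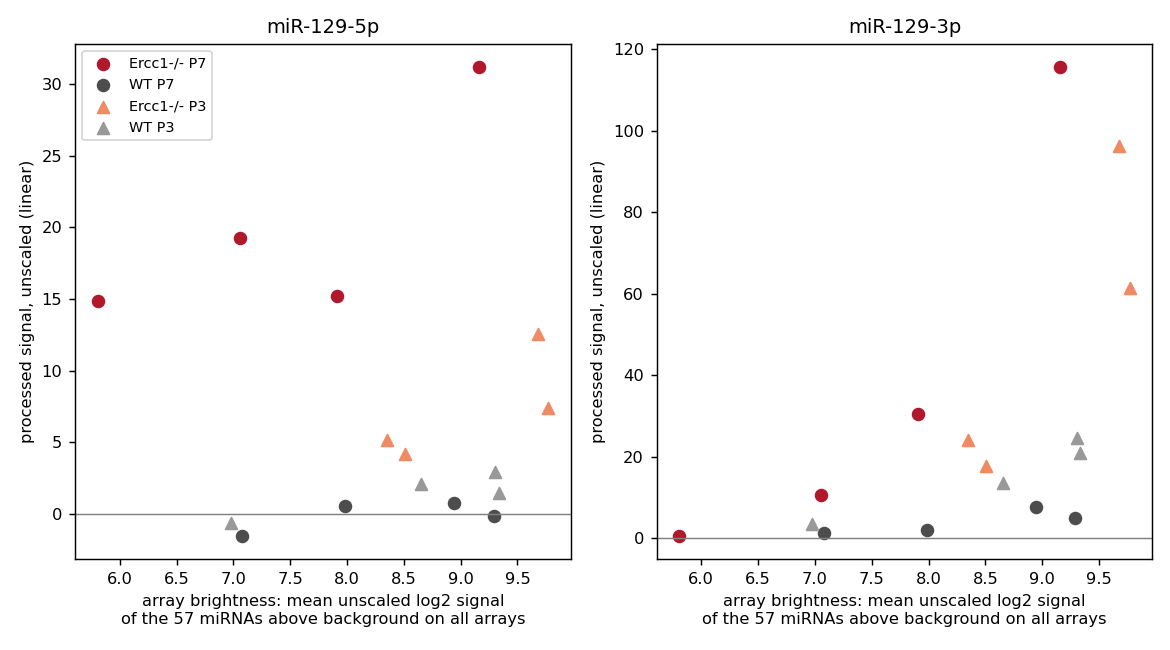
Unscaled processed signal of miR-129-5p (left) and miR-129-3p (right) against the brightness of the array, the mean unscaled log2 signal of 57 miRNAs, with 1 point per array. Ercc1-/- P7 arrays have miR-129-5p signals of 14.9 to 31.2 at all brightness levels, whereas their miR-129-3p signal runs from 0.6 on the dimmest array to 115.5 on the brightest.

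Both probes for miR-129-5p read higher on the Ercc1-/- P7 than on the WT P7 arrays. Probe A_54_P2343 read 21.8 to 43.2 on Ercc1-/- P7 arrays and -0.8 to 2.0 on WT P7 arrays, and it was above background on all 4 of the Ercc1-/- P7 arrays. Probe A_54_P2344 was dimmer, with 6.1 to 19.1 on Ercc1-/- P7 arrays and -2.2 to -0.3 on WT P7 arrays, and it was above background on only 1 Ercc1-/- P7 array. At P3 the first probe read 7.3 to 18.9 on Ercc1-/- arrays and -0.9 to 5.1 on WT arrays. The second read 0.6 to 6.3 on Ercc1-/- P3 arrays and -0.3 to 0.8 on WT P3 arrays, where the genotypes overlapped and 0 arrays were above background by this probe.

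The other arm, miR-129-3p, was also at a higher level in Ercc1-/- than in WT MEFs, but at both passages. It was above background on 3 of 4 Ercc1-/- P7 arrays and 1 of 4 WT P7 arrays, and on 4 of 4 Ercc1-/- P3 arrays and 3 of 4 WT P3 arrays. Its levels on slide 1 and slide 2 were 6.06 and 1.80 in Ercc1-/- P7 MEFs in 20% O2, against 1.50 and 1.53 in WT P7 MEFs. In 3% O2 they were 5.39 and 4.70 in Ercc1-/- P7 MEFs, against 2.37 and 1.50 in WT P7 MEFs. At P3 they were 4.53 and 4.0 in Ercc1-/- MEFs in 20% O2, against 3.41 and 3.19 in WT MEFs. At P3 in 3% O2 they were 5.27 and 4.60 in Ercc1-/- MEFs, against 3.67 and 3.48 in WT MEFs. All Ercc1-/- P3 arrays were above all WT P3 arrays, which held for 15 of the 235 tested miRNAs (6.38%). At P7 the groups overlapped through a single Ercc1-/- array, replicate 2 in 20% O2, which was the dimmest of all 16 and had miR-129-3p at an unscaled signal of 0.6, not above background.

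Averaged over passage and oxygen, miR-129-3p was at 4.54 in Ercc1-/- and 2.58 in WT MEFs, a difference of 1.96 (SE 0.52), with 2.57 on slide 1 and 1.35 on slide 2. This did not pass the threshold of 0.05 over the 235 tested miRNAs (limma, adjusted p = 0.0890, unadjusted p = 0.00265). The fit took the 16 arrays as independent, though each genotype has 2 cell lines, so arrays of 1 line may not be. With the slide as a block the same difference had an adjusted p of 0.0400, and with the replicate within each genotype as a random effect the adjusted p was 0.293. Over the 14 alternatives that kept all arrays the adjusted p by limma ran from 0.0400 to 0.993. Leaving out each array in turn gave differences of 1.43 to 2.50. The largest came without the dimmest array and the smallest without replicate 1 of the same group. In this comparison 1.7% of the tested miRNAs were called, with miR-129-5p, which was chosen on these arrays, among them. The level was higher in Ercc1-/- than in WT MEFs in 8 of 8 pairs of arrays matched for passage, oxygen and slide. In the pair at P7 in 20% O2 on slide 2, neither array was above background. At least 7 of 8 such pairs, a looser threshold, went this way for 21 of the 235 tested miRNAs (8.94%). The share with 8 of 8 pairs was not counted.

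By group, the difference of Ercc1-/- from WT in miR-129-3p was 2.42 (SE 1.03) at P7 in 20% O2, with 4.56 on slide 1 and 0.27 on slide 2, where neither genotype was above background, and 3.11 at P7 in 3% O2 with the same SE. Neither was called (limma, adjusted p = 0.780 and 0.875). At P3 it was 0.97 in 20% O2 and 1.36 in 3% O2, with adjusted p = 1 in both. Most of this signal comes from probe A_54_P1338, which read 0.6 to 215.0 on Ercc1-/- P7 and 1.8 to 14.3 on WT P7 arrays, and 34.4 to 177.5 on Ercc1-/- P3 and 9.2 to 45.6 on WT P3 arrays. The companion probe A_54_P1337 was above background on 2 of 16 arrays, both Ercc1-/-.

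Between passages, miR-129-5p was higher in Ercc1-/- P7 than in Ercc1-/- P3 MEFs in every pair of arrays matched for oxygen and slide, by amounts that depend on the floor. For miR-129-3p, P7 minus P3 in Ercc1-/- MEFs was 1.53 on slide 1 and -2.20 on slide 2 in 20% O2, and 0.11 on slide 1 and 0.10 on slide 2 in 3% O2. The only negative value is that of the dimmest array. The means were -0.34 in 20% O2 and 0.11 in 3% O2 (SE 1.03, limma, adjusted p = 0.805 and 0.954). In WT MEFs miR-129-5p was at the floor at both passages, where no lower level can be measured. For miR-129-3p P7 minus P3 in WT MEFs was -1.78 in 20% O2 and -1.64 in 3% O2 (limma, adjusted p = 0.542 and 0.647). Averaged over genotype and oxygen it was -0.91 (SE 0.52, limma, adjusted p = 0.142), and it turned to 0.48 under normexp and to 0.13 with the floor multiplied by 4. The passage change of miR-129-3p in Ercc1-/- minus that in WT MEFs, averaged over oxygen, was 1.60 (SE 1.03, limma, adjusted p = 0.769), in a comparison where 0% of the tested miRNAs were called. Leaving out each array in turn gave 0.53 to 2.66 for this difference. The highest value came without the dimmest array, which left a single array in its group. By the software's total signal the difference was negative.

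Across the 16 arrays, Pearson r of miR-129-5p with miR-129-3p was 0.28 and Spearman coefficient 0.58, with r = 0.75 on slide 1 and 0.09 on slide 2 (8 arrays each). As a description of levels across genotype, both arms had at least 7 of 8 Ercc1-/- arrays above every WT array, and they were the only tested miRNAs that did (2 of 235, 0.851%). This criterion was chosen after the values were seen, and miR-129-5p was picked for part of it. The arrays of each genotype come from 2 cell lines.

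The classic neuronal members were not seen in MEFs. MiR-124, the dominant neuronal miRNA that represses non-neuronal transcripts, was above background on 0 of 16 arrays, with unscaled signals of -3.7 to -1.1. MiR-138, which limits dendritic spine growth in rat neurons through Lypla1, was above background on 0 of 16 arrays, with unscaled signals of -2.5 to 1.1. Its scaled level was off the floor on 1 array only, at 2.72 on replicate 2 of Ercc1-/- P7 MEFs in 20% O2, the dimmest array, where the unscaled signal was 1.1. MiR-9, which promotes neuronal differentiation of progenitors, was above background on 0 of 16 arrays, with unscaled signals of -1.7 to 2.2 in Ercc1-/- and -1.0 to 6.8 in WT MEFs. Its highest signals, 6.8 and 5.4, were on the slide 1 arrays of WT P3 MEFs in 20% and 3% O2. The software that read the arrays called it detected on 2 of 4 WT P3 arrays and on no other array.

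MiR-128, which in neurons regulates excitability and in glioma represses Bmi1, was near background. It was above background on 6 of 16 arrays, all on slide 1, namely both genotypes at P3 in both oxygen levels and both genotypes at P7 in 20% O2. The software's own call detected it on 7 arrays, with 3 of the 4 WT P3 arrays among them. On slide 1 and slide 2 its scaled log2 level was 2.42 and 1.50 in Ercc1-/- P7 MEFs in 20% O2, against 2.36 and 1.50 in WT P7 MEFs. In 3% O2 it was 1.50 and 1.50 in Ercc1-/- P7 MEFs, against 1.66 and 1.50 in WT P7 MEFs. At P3 it was 2.85 and 2.49 in Ercc1-/- MEFs in 20% O2, against 2.96 and 2.95 in WT MEFs. At P3 in 3% O2 it was 2.50 and 2.11 in Ercc1-/- MEFs, against 2.44 and 2.26 in WT MEFs. Every P7 level was under the P3 level of the same genotype, oxygen and slide, as for 42 of 235 (17.9%) of the tested miRNAs, and the averaged P7 minus P3 difference was -0.70 on slide 1 and -0.95 on slide 2, where no array was above background by the share of spots. MiR-128 was not tested, because no group had it above background on both arrays, and the study had named it from these arrays. Ercc1-/- minus WT, averaged, was -0.04 on slide 1 and -0.15 on slide 2.

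The pair encoded side by side on chromosome 11, miR-212 and miR-132, did not follow miR-129-5p. MiR-212 was above background on all 16 arrays. Its levels were 5.93 to 6.32 in Ercc1-/- P7 MEFs, 5.84 to 6.49 in WT P7 MEFs, 5.24 to 5.74 in Ercc1-/- P3 MEFs and 5.51 to 6.47 in WT P3 MEFs. The Ercc1-/- P7 arrays lay above the Ercc1-/- P3 arrays, as for 53 of 235 (22.6%) of the tested miRNAs, and at either passage the genotypes overlapped. In Ercc1-/- P7 MEFs it was at 6.32 and 5.93 in 20% O2 and at 6.13 and 6.21 in 3% O2. Ercc1-/- minus WT was -0.34 (SE 0.24, limma, adjusted p = 0.933), the same on both slides. P7 minus P3 was 0.42 (SE 0.24, adjusted p = 0.159), in a comparison where 54.9% of the tested miRNAs were called and the median change was -0.39. Without scaling it was -0.50, where that median was -1.14.

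MiR-132, which promotes dendrite growth by repressing Arhgap32 in rat neurons, was above background on 8 of 16 arrays. On slide 1 and slide 2 it was at 2.61 and 1.50 in Ercc1-/- P7 MEFs in 20% O2, against 2.96 and 1.50 in WT P7 MEFs. In 3% O2 it was at 2.54 and 1.50 in Ercc1-/- P7 MEFs, against 2.48 and 1.68 in WT P7 MEFs. At P3 it was at 2.45 and 1.62 in Ercc1-/- MEFs in 20% O2, against 2.73 and 2.79 in WT MEFs. At P3 in 3% O2 it was at 3.56 and 3.18 in Ercc1-/- MEFs, against 3.51 and 3.40 in WT MEFs. The 3% O2 arrays at P3 were thus the highest, in both genotypes. P7 minus P3, averaged, was -0.81. No test of it is given, because miR-132 was above background on both arrays in the P3 groups in 3% O2 alone and entered the fit through them, which favours a lower P7 level. Of all tested miRNAs, 32.3% were called lower in this comparison. Ercc1-/- minus WT was -0.26 (SE 0.33, adjusted p = 0.933). MiR-132 was above background on 2 of 8 P7 arrays and 6 of 8 P3 arrays, and 3 of the P7 arrays lie at the floor.

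**Figure D3:**
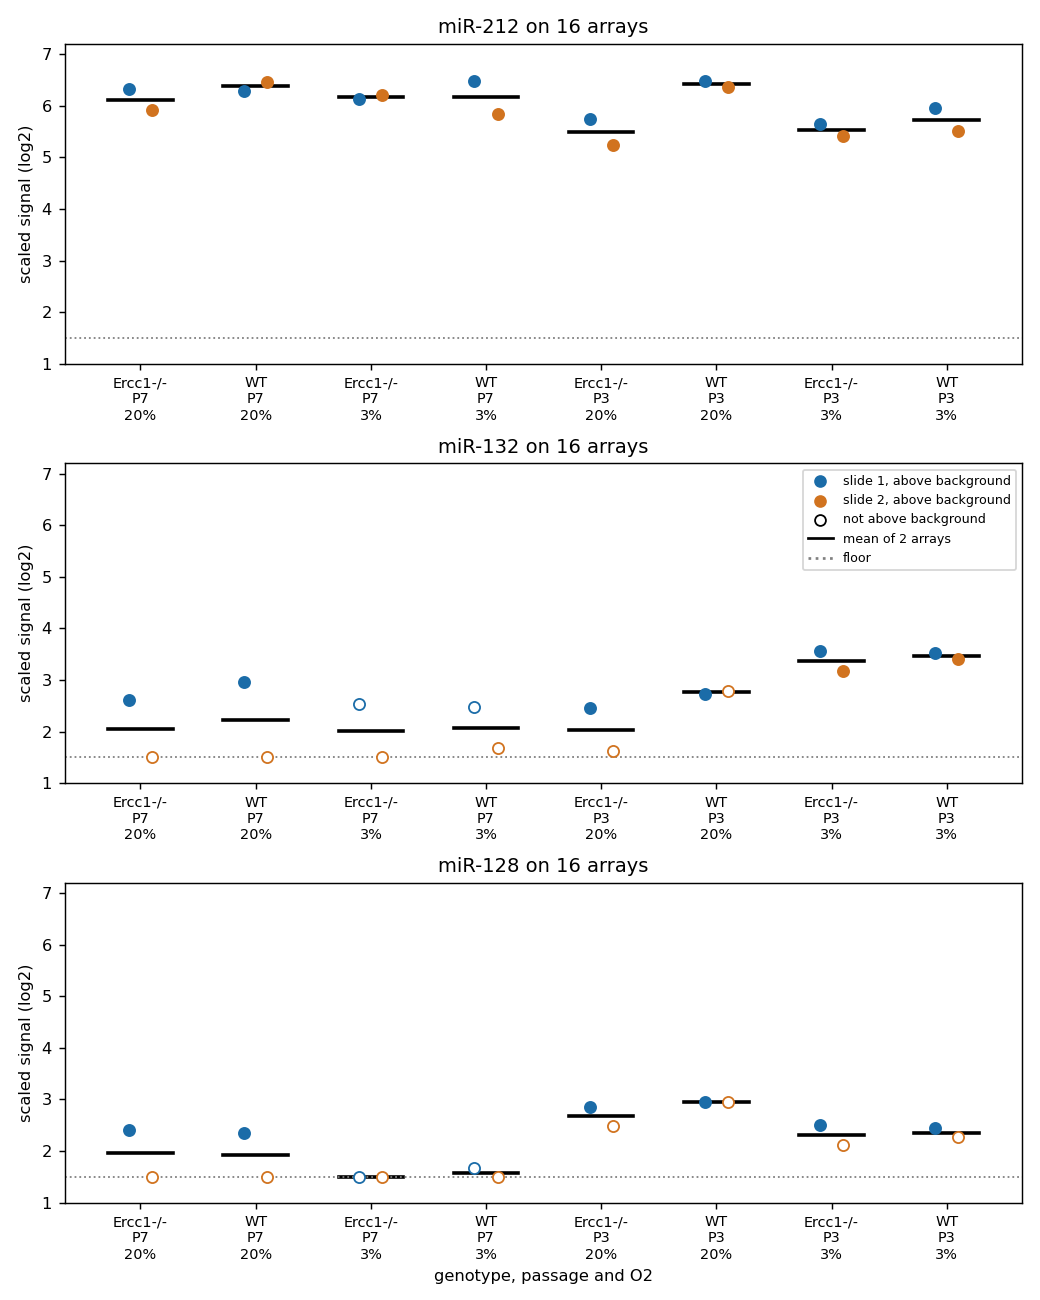
Scaled log2 signal of miR-212, miR-132 and miR-128 on each of 16 arrays, drawn as in the plot of the miR-129 arms. MiR-212 lies between 5.24 and 6.49 in every group, and miR-132 and miR-128 approach the floor of 1.50 on the slide 2 arrays at P7.

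Between oxygen levels, neither miR-129-3p nor miR-212 passed the test. With genotypes and passages averaged, 20% minus 3% O2 was -0.62 (SE 0.52) for miR-129-3p and 0.20 (SE 0.24) for miR-212, with an adjusted p of 1.00 for both by limma, where 0.851% of the tested miRNAs were called. It was -0.08 for miR-129-5p and -0.46 for miR-132, with no test, since both entered the fit only through the groups where they were high. In the 13 comparisons of single groups, 0 calls were made for miR-129-3p and miR-212, and miR-129-5p and miR-132 were left out. Of these, miR-129-3p alone had an unadjusted p under 0.05 in any of them, in Ercc1-/- against WT at P7 in 20% O2 and in 3% O2. The shares of called miRNAs that follow are over all tested ones, miR-129-5p included. In these comparisons of Ercc1-/- with WT, 0.426% were called at P7 in 20% O2 and 0% at P7 in 3% O2. At P3 0.851% were called in 20% O2 and 0% in 3% O2. The share at P7 in 20% O2 is miR-129-5p alone, from which nothing is read, as it was chosen on these arrays. Between P7 and P3 1.28% were called in 20% O2 and 0% in 3% O2, in either genotype, and 0% between oxygen levels. Between Ercc1-/- P7 MEFs in 20% O2 and WT P3 MEFs in 3% O2 2.55% were called. MiR-129-5p is also counted in this share and in that between P7 and P3 in Ercc1-/- MEFs in 20% O2.

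**Figure D4:**
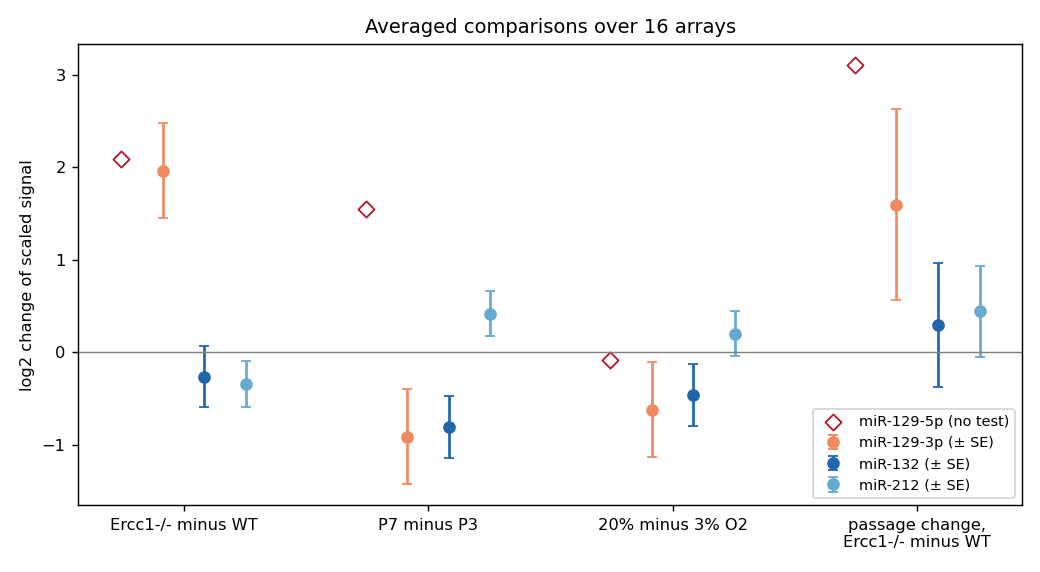
Log2 change of the 4 fitted members in the averaged comparisons of Ercc1-/- against WT, P7 against P3, 20% against 3% O2, and in the passage change of Ercc1-/- minus that of WT, with bars of 1 SE and open diamonds without a test for miR-129-5p. MiR-129-3p lies at 1.96 for Ercc1-/- against WT, and the diamonds of miR-129-5p are set against arrays at the floor, so that their height depends on it.

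The miRNAs whose levels most resembled miR-129-5p were not on the lists of brain miRNAs. By Pearson r over 16 arrays these were miR-28* (0.94, Spearman coefficient 0.66), miR-290-5p (0.82, Spearman 0.44), miR-17* (0.82, Spearman 0.63), miR-877 (0.81, Spearman 0.49) and miR-680 (0.81, Spearman 0.46). The leading one, miR-28*, is the second strand of an intronic miRNA of Lpp. It was above background on 4 of 4 Ercc1-/- P7 arrays and 2 of 4 WT P7 arrays, and on 2 of 4 arrays at P3 in each genotype. Its mean level was 3.53 in Ercc1-/- P7, 1.72 in WT P7, and 1.50 in both genotypes at P3, where a scaled signal under the floor can still be above background on a bright array. MiR-290-5p, from a cluster of embryonic stem cells, averaged 5.05 in Ercc1-/- P7, 3.55 in WT P7, 2.87 in Ercc1-/- P3 and 2.86 in WT P3 MEFs. Unlike miR-129-5p, the means of all 5 were higher in WT P7 than in WT P3 MEFs, which was not tested. Within slides r for miR-28* was 0.90 on slide 1 and 0.95 on slide 2.

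**Figure D5:**
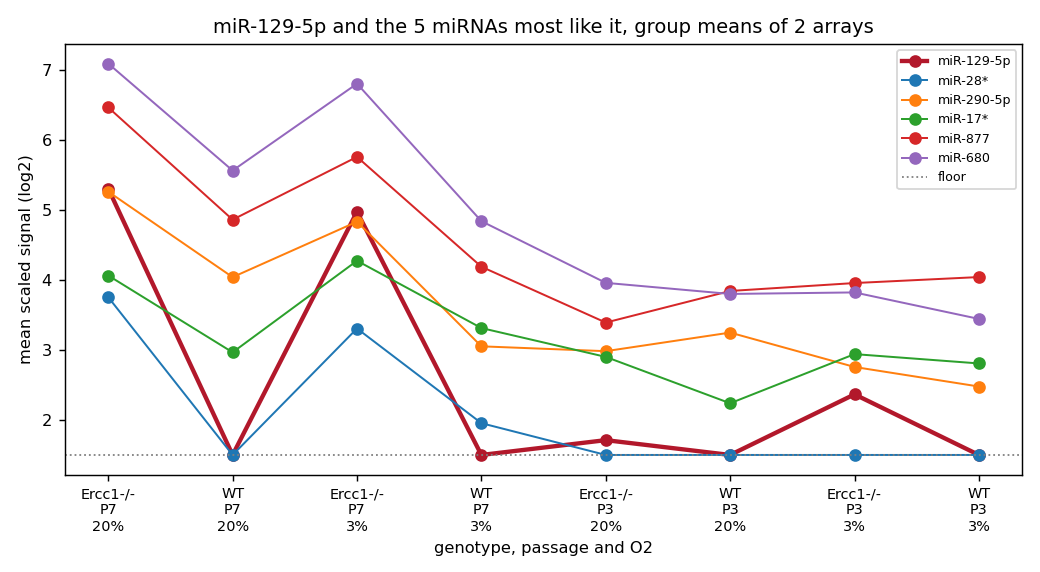
Mean scaled log2 signal (2 arrays per group) of miR-129-5p and of the 5 tested miRNAs with the highest Pearson r to it, by genotype, passage and O2. All have their highest means in the Ercc1-/- P7 groups, and miR-129-5p is at the floor in all 4 WT groups, P7 included.

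Among the members themselves, r of miR-129-5p was -0.41 with miR-132 and 0.06 with miR-212 over the same arrays. The miRNA most like miR-129-3p was miR-431 (r = 0.76), that most like miR-132 was miR-146b (r = 0.82), and that most like miR-212 was miR-1198 (r = 0.67). All of these are descriptions over arrays that share slides and scaling.

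Other brain-enriched miRNAs gave little signal. Of 20 listed, 17 were on the array, 12 were above background on no array and 5 on at least 1, and 2 (miR-149 and miR-218) were tested. MiR-218, known from motor neurons and encoded in introns of Slit2 and Slit3, was lower at P7 than at P3 in 8 of 8 pairs of arrays matched for genotype, oxygen and slide, as were 42 of 235 (17.9%) of the tested miRNAs. It was at 2.34 and 1.50 in Ercc1-/- P7 MEFs in 20% O2 and at 1.50 and 1.50 in 3% O2, and at 4.20 and 1.50 in WT P7 MEFs in 20% O2 and at 4.63 and 2.51 in 3% O2 (slide 1 and slide 2). At P3 it was at 5.52 and 4.74 in Ercc1-/- MEFs in 20% O2 and at 5.46 and 4.59 in 3% O2, and at 6.17 and 5.97 in WT MEFs in 20% O2 and at 6.04 and 5.68 in 3% O2. All 8 P7 arrays were at or under 4.63 and all P3 arrays at or above 4.59, so the passages overlapped only at these values. Several P7 arrays were at the floor, and miR-218 entered the fit through its P3 groups alone, so no test or size of the difference is given. For miR-149, which also entered through P3 groups, P7 minus P3 was 0.28. The summed level of the list was 3.97 to 5.80 in Ercc1-/- P7, 4.37 to 5.46 in WT P7, 5.35 to 6.08 in Ercc1-/- P3 and 6.38 to 7.22 in WT P3 MEFs (log2 of the summed scaled signal). At P3 a large part of this sum was miR-218, which alone was at 4.59 to 6.17. The summed level was thus not highest in the Ercc1-/- P7 MEFs, where miR-129-5p was.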

How the data were processed

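Total RNA from Ercc1-/- and WT MEFs was labelled with Cy3 and hybridized to Agilent one-colour mouse miRNA arrays of 13715 spots, 16 arrays in 8 groups of 2. Intensity values were made by the authors with Feature Extraction (10.7.1.1 per the file headers), which subtracts the background of each spot and does not scale arrays to each other. The deposited series table holds intensity on the linear scale, about 1.32 times the scanner means on most arrays, and was used only as an alternative.

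Processed signals were averaged without outlier spots, scaled, floored and log2 transformed as described with the levels. A miRNA entered the fit if some group had it above background on each of its arrays, which left 235. These were fitted with limma 3.58.1 (R 4.3.3) with 1 mean per group over all 16 arrays (8 residual degrees of freedom, 3.58 prior). P-values were adjusted by Benjamini-Hochberg per comparison, with calls at an adjusted p under 0.05. Of the members 4 were fitted, and miR-124, miR-9, miR-138 and miR-128 did not pass this filter. Group sizes of 2 limit the precision. The fit was tested on simulated data.

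The members, lists and tests were chosen with earlier results of these data known. Members and called miRNAs of a companion list of brain miRNAs were named, together with the 5 tested miRNAs most like miR-129-5p by Pearson r and the first for each other member above background on at least 8 arrays. The replicate number coincides with slide and scan, and the labels do not say whether it also marks the cell line. Differences between the replicates correlated between groups with a median Pearson r of 0.61 at P3, 0.81 at P7 and 0.03 for P3 with P7, so arrays of 1 slide deviated together within a passage but not across passages. The numbers were not taken as pairs over the whole design, and the slide as a block is an alternative, given beside the call it changes. Alternatives changed the scaling, background (normexp with an offset of 50 on the median spot signal, in place of the planned mean signal, which was not used here), spot summary, floor, filter, detection rule, block, value table and test (the methods' t-test), and left out each array in turn.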

Additional observations from a re-analysis of the deposited data

Results flagged for a closer look

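The passage change of miR-129-3p in 3% O2 went in opposite directions in the genotypes on both slides. P7 minus P3 was 0.11 on slide 1 and 0.10 on slide 2 in Ercc1-/- MEFs, and -1.30 on slide 1 and -1.99 on slide 2 in WT MEFs (log2). This difference in 3% O2 was not tested by itself, and the 2 Ercc1-/- values are small beside the SE of 1.03 of a single comparison.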

How the results depend on the processing

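Over 34 results, 240 of 276 values under alternatives that kept all arrays had the same direction and side of the threshold, 22 changed sign, 5 passed the threshold anew and 9 moved. The cause of these changes was not tested. The counts include miR-132 in P7 against P3, for which no test is given. With the replicate number as a block the adjusted p was 0.0400 for miR-129-3p in Ercc1-/- against WT (1.96). With the replicate number within genotype as a random effect it was 0.293. P7 minus P3 of miR-132 was -0.81 with the block and -0.88 in the series table. No p-value of miR-132 for P7 against P3 is given, as it entered the fit through P3 groups, which favours a lower P7 level. Of the results for which a test is given, no other changed its side of the threshold with the block. Quadrupling the floor gave an adjusted p of 0.0360 for miR-212 in P7 against P3 (0.42).

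Under normexp, P7 minus P3 was 0.48 for miR-129-3p and 0.38 for miR-132, 20% minus 3% O2 was 0.17 for both, and Ercc1-/- minus WT was 0.10 for miR-132. With the floor multiplied by 4, P7 minus P3 was 0.13 for miR-129-3p, and Ercc1-/- minus WT was 0.0053 for miR-132. Without scaling, P7 minus P3 was -0.50 and 20% minus 3% O2 -0.043 for miR-212, and this oxygen value was -0.059 when scaled to all miRNAs.

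The passage change in Ercc1-/- minus that in WT was -1.68 for miR-129-3p by the software's total signal. For miR-212 it was -0.43 when scaled to all miRNAs, -0.25 to the 75th percentile and -0.91 unscaled. For miR-132 it was -0.12, -0.069 and -0.38 under these 3 scalings, -0.0091 after quantile normalization, -0.32 with medians over spots, -0.60 and -0.011 with the floor multiplied by 0.1 and 4, and -0.079 with the software's detection call. The median of all tested miRNAs in this comparison was 0.03 as reported, and -0.71, -0.55, -1.08 and -0.23 under scaling to all miRNAs, the 75th percentile, no scaling and quantile normalization.

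The difference of Ercc1-/- P7 from WT P7 MEFs in miR-129-5p was 2.51 without scaling, 0.68 under normexp, 5.55 with medians over spots, and 6.37 and 1.65 with the floor multiplied by 0.1 and 4. The methods' t-test passed 1 member, miR-129-3p, in Ercc1-/- against WT at P7 in 3% O2 and 1 in P7 against P3 WT MEFs in 20% O2, and 0 after Benjamini-Hochberg. MiR-9 was detected on 2 arrays by the software's call, and miR-128 on 3 arrays where all spots of a probe had to be above background.

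Leaving out 1 array at a time gave -1.45 to -0.38 for P7 minus P3, 1.43 to 2.50 for Ercc1-/- minus WT, -1.16 to -0.090 for 20% minus 3% O2 and 0.53 to 2.66 for the difference of passage changes in miR-129-3p. In miR-132 it gave -0.99 to -0.63 for P7 minus P3 and -0.073 to 0.66 for the difference of passage changes. Fits that leave out an array have a single array in its group, so no p-value of them is given. Without replicate 1 of Ercc1-/- P7 MEFs in 20% O2, P7 minus P3 of miR-129-3p was -1.45 and 20% minus 3% O2 -1.16. P7 minus P3 of miR-132 was -0.95 without this array and -0.99 without replicate 1 of WT P7 MEFs in 20% O2. It was -0.94 without replicate 1 of Ercc1-/- P7 MEFs in 3% O2. No test of these values is given, as miR-132 entered the fit through P3 groups.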
